A study of Homo sapiens with 9 samples.

Results

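The 10 genes described are inhibitors of the cyclin-dependent kinases (CDKs) and genes that answer to the tumour suppressor p53: CDKN1A, CDKN1B, CDKN2A, CDKN2B, CDKN2C, CDKN2D, GADD45A, GADD45B, MDM2 and BBC3. Every probe set that the platform annotation gives to 1 of these genes and to no other was taken, and the one with the highest mean over the 9 arrays served as the main probe set of its gene. Of the 10 genes, 8 had such probe sets, 24 in all, among 19775 genes and 54675 probe sets of the whole table. CDKN2C had no single-gene probe set in the table used, and BBC3 had only 1 that is shared with the microRNA genes MIR3190 and MIR3191.

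The series followed 3 established human embryonic stem cell (hESC) lines, Shef3, H14 and Shef1, on their way towards otic progenitors, the precursors of the inner ear. Expression was read on Affymetrix arrays that probe the 3′ end of transcripts, with 1 array for each line in each of 3 groups. In the group FGF3+10, cells were kept for 14 days on laminin in DFNB medium, which is free of serum and carries N2 and B27 supplements, to which FGF3 and FGF10 had been added at 50 ng/ml each. The group DFNB had the same 14 days on laminin in that medium without added FGFs, and both day 14 groups began from stem cells dispersed with trypsin. The group hESC was taken at day 0, undifferentiated, from cultures on inactivated mouse embryonic fibroblast feeders in medium with 20% serum replacement and 4 ng/ml basic FGF. All groups carry the unmodified genome of their line, and each line enters each group once. The 3 arrays of a group are thus 3 lines, no culture was repeated within a line, and the p-values below measure only the spread between these arrays. The day 14 groups differ from hESC in medium, substrate, feeders and time at once, and these cannot be told apart. Whether feeder cells were removed before RNA was taken is not given in the sources used here.

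CDKs drive the cell through its division cycle by phosphorylating the retinoblastoma protein RB, which frees the E2F factors that switch on replication genes. The INK4 proteins (products of CDKN2A, CDKN2B, CDKN2C and CDKN2D) bind CDK4 and CDK6, while the CIP/KIP proteins p21 (CDKN1A) and p27 (CDKN1B) bind cyclin and CDK complexes more widely. p53 is stabilised by DNA damage and other stress and switches on CDKN1A, the GADD45A damage response gene, the cell death gene BBC3 (PUMA) and MDM2, whose product marks p53 for destruction. CDKN2A also codes, in another reading frame and from another start, for ARF, an inhibitor of MDM2. Embryonic stem cells are known for a very short first gap phase and for holding several of these inhibitors low, and many differentiating cells raise them.

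The promoters below are those of the genes whose DFNB and hESC levels did not overlap, and of MDM2, whose probe sets disagreed. They were read from RefSeq on GRCh38.p14 as the 250 bases before the transcript start, 5′ to 3′ on the strand of the gene. The 20-base p53 element, searched on both strands with up to 2 mismatches, matched in 0.561% of 35116 promoters, and among the starts listed for the 9 members with a promoter entry only at the downstream starts of MDM2. There the match begins 94 bases before the start shown and has 2 mismatches. Capitals mark that match in the MDM2 sequence and, in the other sequences, GGGCGG on either strand (CCGCCC when read on the other strand), the core of the box that the SP family of factors binds. GGGCGG was present in 42.6% of all promoters, and in the sequences shown it occurs 4 times for CDKN1A, 2 times for CDKN2B, 1 time at the INK4A start of CDKN2A and 0 times at its ARF start. Overlapping copies are counted singly, and a match is only a match of letters. The p53 elements known at CDKN1A lie farther upstream than this window.
MDM2, downstream start, chr12:68808767-68809016, plus strand: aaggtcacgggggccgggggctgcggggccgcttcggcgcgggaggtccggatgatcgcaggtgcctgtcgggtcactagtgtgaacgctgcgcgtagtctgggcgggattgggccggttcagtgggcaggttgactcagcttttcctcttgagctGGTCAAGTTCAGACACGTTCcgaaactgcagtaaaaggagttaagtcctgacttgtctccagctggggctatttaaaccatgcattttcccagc
CDKN1A, chr6:36678464-36678713, plus strand: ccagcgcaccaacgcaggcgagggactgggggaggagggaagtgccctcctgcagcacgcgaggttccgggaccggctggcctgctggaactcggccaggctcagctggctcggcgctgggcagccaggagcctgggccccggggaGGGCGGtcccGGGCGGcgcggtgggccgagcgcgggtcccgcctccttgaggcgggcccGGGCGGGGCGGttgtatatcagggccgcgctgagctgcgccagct
CDKN2B, chr9:22009306-22009555, minus strand: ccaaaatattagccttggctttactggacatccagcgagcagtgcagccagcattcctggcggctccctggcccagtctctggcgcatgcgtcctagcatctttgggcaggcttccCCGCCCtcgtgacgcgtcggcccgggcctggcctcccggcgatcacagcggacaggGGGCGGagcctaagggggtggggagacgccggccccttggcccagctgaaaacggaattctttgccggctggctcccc
CDKN2A, INK4A start, chr9:21974858-21975107, minus strand: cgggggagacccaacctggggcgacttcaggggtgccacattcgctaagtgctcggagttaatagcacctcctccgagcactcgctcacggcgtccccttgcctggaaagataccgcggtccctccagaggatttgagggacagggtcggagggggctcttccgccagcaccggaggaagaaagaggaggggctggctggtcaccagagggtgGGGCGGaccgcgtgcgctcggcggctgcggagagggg
CDKN2A, ARF start, chr9:21995325-21995574, minus strand: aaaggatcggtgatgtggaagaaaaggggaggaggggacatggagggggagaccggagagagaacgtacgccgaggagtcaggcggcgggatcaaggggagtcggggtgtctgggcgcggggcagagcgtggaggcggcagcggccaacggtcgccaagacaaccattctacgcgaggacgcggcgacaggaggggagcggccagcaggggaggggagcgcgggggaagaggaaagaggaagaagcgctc

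Values are the deposited logarithms, taken here as log2, with every array at a median of 3.20; 41.8% of main probe sets averaged below 4, where noise is large. The 6 measured pluripotency markers had medians of 6.85 to 10.70 on FGF3+10 arrays, 6.99 to 10.38 on DFNB arrays and 11.09 to 11.32 on hESC arrays. In both day 14 groups Shef1 kept the highest of these medians. The 5 measured otic and preplacodal markers had medians of 4.40 to 6.34 in FGF3+10, 4.73 to 5.39 in DFNB and 1.99 to 3.31 in hESC, and PAX2 among them averaged below 4 in every group. The 9 arrays read GAPDH higher at its 3′ end than at its 5′ end, by 0.14 to 0.53. The poly-A spike-ins averaged 6.21 to 6.36 on Shef1 arrays, 4.35 to 4.53 on H14 arrays and 4.15 to 4.81 on Shef3 arrays, so a technical reading also sets Shef1 apart. Its part in the results was not tested. In such bulk samples, more cells of a type and more RNA per cell cannot be told apart.

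The INK4 genes CDKN2A and CDKN2B, neighbours on chromosome 9, had the widest range of all members over the 9 arrays. CDKN2A stood at 8.65 in Shef3, 7.22 in H14 and 2.74 in Shef1 with FGF3+10, at 7.88, 8.82 and 6.39 in DFNB, and at 5.42, 3.47 and 5.72 in hESC. Every DFNB array lay above every hESC array, whereas the FGF3+10 arrays lay far apart, with Shef3 and H14 above every hESC array and Shef1 lowest of all 9. The limma estimate was 2.83 ± 1.42 (SE, n = 3 and 3 arrays) for DFNB minus hESC, with an adjusted p of 0.371, and 1.33 ± 1.42 for FGF3+10 minus hESC, with an adjusted p of 0.745. Neither passed the threshold of 0.05, set on p-values adjusted by Benjamini-Hochberg over all genes, which applies throughout. The DFNB estimate was 1.56 without H14. The FGF3+10 estimate turned on single arrays: it was 0.12 without H14, 0.39 without Shef3, 3.49 without Shef1, 0.63 without the hESC array of H14, 0.11, 0.83 and 3.07 without the FGF3+10 array of Shef3, H14 or Shef1, and 2.53 with array weights.

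The suffix of the main CDKN2A probe set, 209644_x_at, marks probes that may match other sequences, so the gene's other probe sets matter here. On 207039_at the levels were 6.52, 4.60 and -0.37 in FGF3+10, 5.10, 7.05 and 4.97 in DFNB, and 0.31, -2.93 and 1.35 in hESC, in the order Shef3, H14 and Shef1. The same arrays were high as with the main probe set, and the DFNB and hESC groups again did not overlap. All 3 hESC values lie below 4, so the size of a difference would rest on dim readings, and none is given. The remaining probe set, 211156_at, stayed below 1 on all 9 arrays. Which of the INK4A and ARF transcripts each probe set reads was not analysed here.

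CDKN2B, whose product p15 is induced by TGF-beta in many cell types, was high on the same arrays as CDKN2A. Its levels were 10.06 in Shef3, 7.42 in H14 and 5.26 in Shef1 with FGF3+10, 9.15, 9.92 and 7.95 in DFNB, and 7.06, 4.62 and 6.72 in hESC. All 3 DFNB arrays exceeded all 3 hESC arrays, and the FGF3+10 array of Shef1 lay below that line's hESC array. The estimate was 2.87 ± 1.18 for DFNB minus hESC (adjusted p = 0.294) and 1.45 ± 1.18 for FGF3+10 minus hESC (adjusted p = 0.659) in limma. Without H14 the DFNB estimate was 1.66. The FGF3+10 estimate was 0.77 without H14, 0.67 without Shef3, 2.90 without Shef1, 0.69 without the hESC array of H14, and 0.21 and 2.6 without the FGF3+10 array of Shef3 or Shef1. The second probe set, 207530_s_at, averaged 0.66 over the arrays and was likewise highest on the FGF3+10 array of Shef3, at 4.40, and the DFNB array of H14, at 4.27.

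CDKN2D, which codes for the INK4 protein p19, showed smaller differences. It stood at 5.19 in Shef3, 4.74 in H14 and 4.15 in Shef1 with FGF3+10, at 5.26, 5.43 and 4.34 in DFNB, and at 3.70, 4.38 and 4.87 in hESC. In Shef3 and H14 both day 14 arrays were above the line's hESC array, in Shef1 both were below it, and the groups overlapped. Neither DFNB minus hESC (0.69 ± 0.45, adjusted p = 0.488 in limma) nor FGF3+10 minus hESC (0.37 ± 0.45, adjusted p = 0.785) passed. Both depended on the line, at 0.25 and -0.19 without Shef3 and 1.30 and 0.92 without Shef1, and leaving out single arrays of either line moved them by over 1.5 times as well, to between 0.06 and 0.65 for FGF3+10 and to 0.38 without the hESC array of Shef3 for DFNB. Its other probe set, 213586_at, read below 0 on all 9 arrays.

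**Figure D1:**
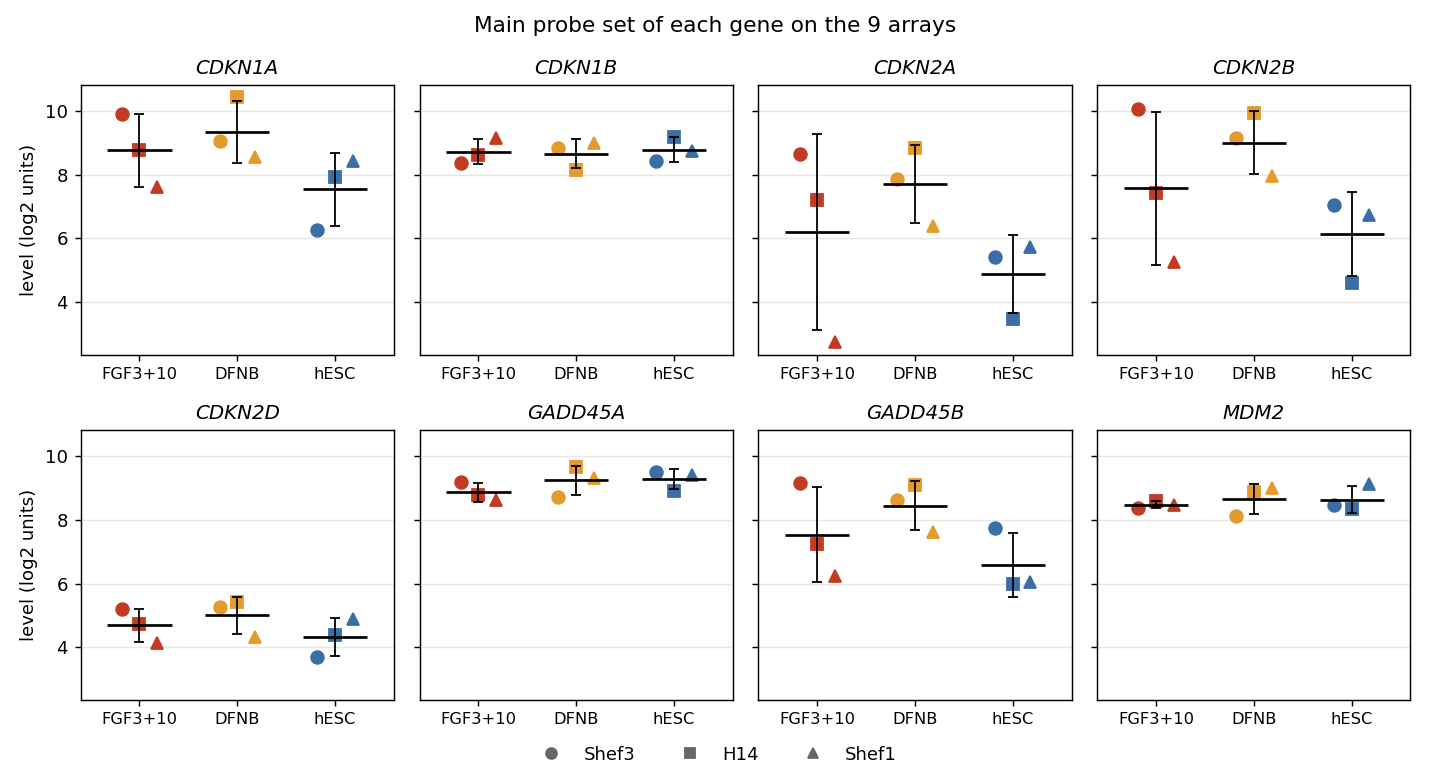
Level of the main probe set of each of the 8 measured genes (vertical axis, log2 units) in FGF3+10, DFNB and hESC (3 arrays each). Each symbol is 1 array, with its shape giving the cell line; the bar is the group mean and the whisker 1 SD. CDKN1A, CDKN2A and CDKN2B lie higher on all DFNB arrays than on any hESC array, while CDKN1B, GADD45A and MDM2 span at most 1.06 units over all arrays.

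Among the CIP/KIP genes, CDKN1A had a wide range and CDKN1B a narrow one. CDKN1A, the main transcriptional target of p53 in the arrest of the cell cycle, stood at 9.90 in Shef3, 8.78 in H14 and 7.60 in Shef1 with FGF3+10, at 9.07, 10.43 and 8.55 in DFNB, and at 6.25, 7.94 and 8.44 in hESC. The DFNB and hESC groups did not overlap, although the lowest DFNB array and the highest hESC array, both Shef1, were close. Line by line, FGF3+10 minus hESC was 3.64, 0.84 and -0.84 in Shef3, H14 and Shef1, and DFNB minus hESC was 2.81, 2.50 and 0.11. The difference was thus positive on 5 of 6 day 14 arrays against the same line's hESC array, a count not made over all genes. The limma estimates, 1.80 ± 0.78 for DFNB minus hESC (adjusted p = 0.313) and 1.22 ± 0.78 for FGF3+10 minus hESC (adjusted p = 0.576), did not pass. The DFNB estimate was 1.16 without the hESC array of Shef3. The FGF3+10 estimate was 0.0002 without Shef3, 2.24 without Shef1, 0.57 without the hESC array of Shef3 and 0.64 without the FGF3+10 array of Shef3, so it rested on Shef3.

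CDKN1B, whose product p27 is controlled largely by protein turnover, had 8.38 in Shef3, 8.62 in H14 and 9.15 in Shef1 with FGF3+10, 8.83, 8.13 and 9.01 in DFNB, and 8.42, 9.19 and 8.74 in hESC. The 3 groups overlapped fully. The difference was -0.13 (95% interval -0.98 to 0.72) for DFNB minus hESC and -0.07 (-0.92 to 0.78) for FGF3+10 minus hESC, and both signs turn positive after quantile normalisation, at 0.06 and 0.14. These intervals are narrow enough to leave out a shift of the size estimated for CDKN2A or CDKN2B in DFNB.

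The GADD45 genes code for small stress proteins that bind PCNA, CDK1 and stress kinases. GADD45B, which is induced by TGF-beta and stress signals, stood at 9.14 in Shef3, 7.23 in H14 and 6.22 in Shef1 with FGF3+10, at 8.62, 9.10 and 7.62 in DFNB, and at 7.74, 5.99 and 6.04 in hESC. GADD45B was the only member whose main probe set was higher on all 6 day 14 arrays than on the hESC array of the same line. The Shef3 hESC array nevertheless overlapped with the other groups, and the share of all genes with these signs was not counted. Its differences were 1.40, 1.24 and 0.18 for FGF3+10 and 0.88, 3.12 and 1.58 for DFNB, in the order Shef3, H14 and Shef1. The estimate for DFNB minus hESC was 1.86 ± 0.80 (adjusted p = 0.310 in limma, and 0.134 with the cell line as replicate block), and that for FGF3+10 minus hESC was 0.94 ± 0.80 (adjusted p = 0.674). The DFNB estimate was 1.23 without H14, and the FGF3+10 estimate was 1.52 without the hESC array of Shef3 and 0.13 and 1.60 without the FGF3+10 array of Shef3 or Shef1. The 2 other probe sets with a mean above 4, 209305_s_at and 209304_x_at, gave 1.87 and 2.16 for DFNB minus hESC.

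GADD45A, a direct p53 target, had 9.19 in Shef3, 8.77 in H14 and 8.62 in Shef1 with FGF3+10, 8.73, 9.65 and 9.32 in DFNB, and 9.52, 8.91 and 9.40 in hESC. No group stood apart. Against the same line's hESC array, 1 of 6 day 14 arrays was higher. FGF3+10 minus hESC was -0.33, -0.13 and -0.78 in Shef3, H14 and Shef1. The difference was -0.41 (95% interval -1.20 to 0.38) for FGF3+10 minus hESC and -0.04 (-0.83 to 0.75) for DFNB minus hESC, the second of which turns to 0.17 after quantile normalisation.

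MDM2 had 10 single-gene probe sets, more than any other member, and they did not tell 1 story. The main probe set, 229711_s_at, gave 8.38 in Shef3, 8.59 in H14 and 8.45 in Shef1 with FGF3+10, 8.12, 8.86 and 9.0 in DFNB, and 8.45, 8.34 and 9.11 in hESC. These levels overlapped, with a difference of 0.03 (95% interval -0.76 to 0.82) for DFNB minus hESC and -0.16 (-0.95 to 0.63) for FGF3+10 minus hESC, and the second sign turns to 0.03 after quantile normalisation. Probe set 238733_at, by contrast, gave 5.41, 4.59 and 3.66 in FGF3+10, 4.53, 6.49 and 5.18 in DFNB, and 1.18, 0.70 and 3.60 in hESC. All 6 day 14 arrays were above all 3 hESC arrays, by the smallest margin in Shef1 with FGF3+10. Among the main probe sets of all 19775 genes, 836 had this position.

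All 3 hESC values of 238733_at lie below 4, so the size of its difference would rest on dim readings and is not given; in the fit over all probe sets it was not called (adjusted p = 0.158 for DFNB minus hESC and 0.313 for FGF3+10 minus hESC in limma). Of the 9 other MDM2 probe sets, none was higher on all 6 day 14 arrays than on the hESC array of the same line. The probe sets of MDM2 next in level, 225160_x_at and 217542_at, had DFNB minus hESC differences of 0.37 ± 0.60 and 0.09 ± 0.41. Which part of the gene each probe set reads was not analysed here, so these values cannot be tied to the upstream or the downstream start.

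**Figure D2:**
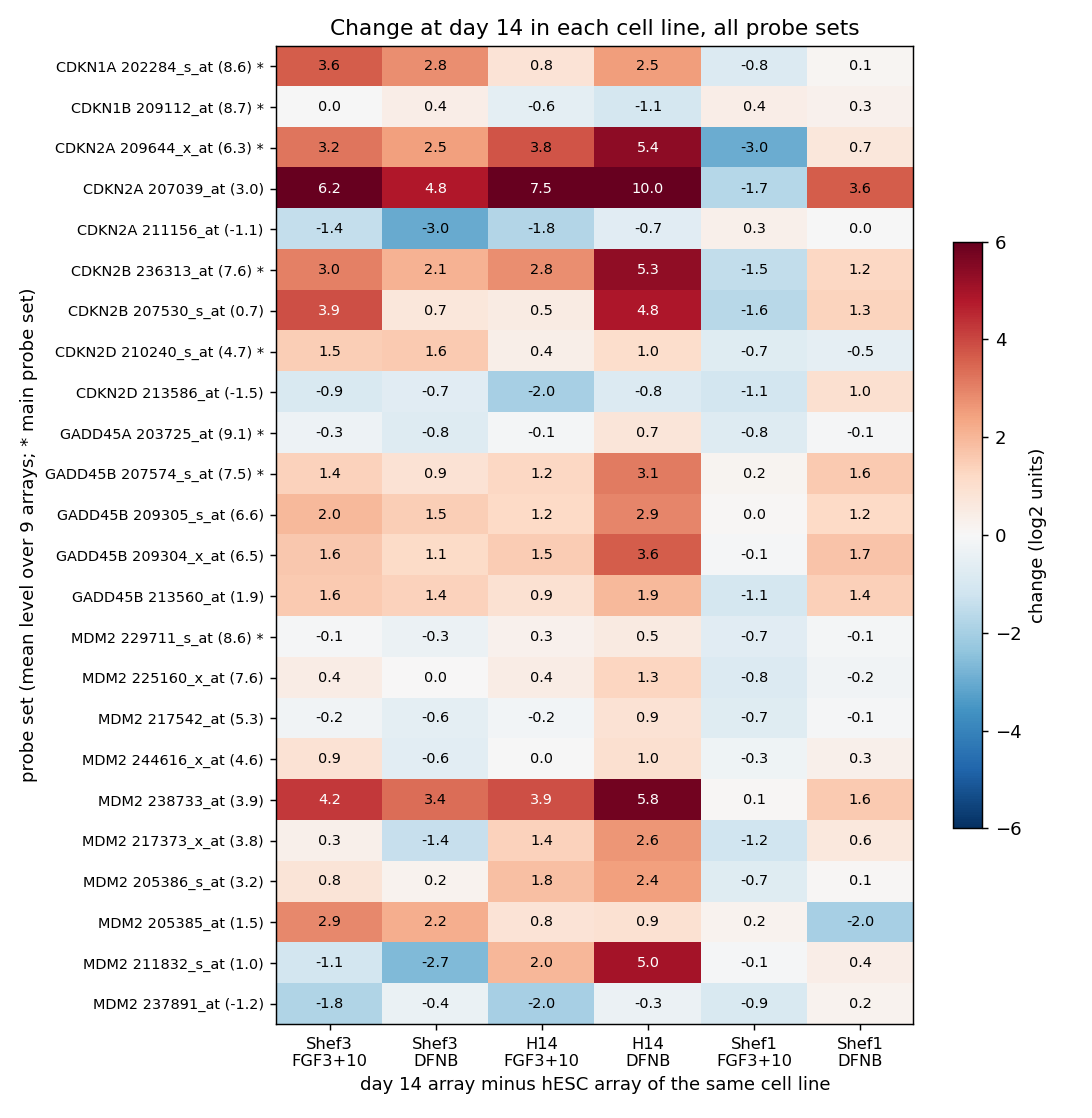
Difference in log2 level between each day 14 array and the hESC array of the same cell line (columns, FGF3+10 and then DFNB within each line) for all 24 single-gene probe sets (rows, with the mean level over 9 arrays; an asterisk marks the main probe set). The highest probe sets of CDKN1A, CDKN2A, CDKN2B and GADD45B and 3 of 10 probe sets of MDM2 are positive in Shef3 and H14 in both media, and at or below 0.18 in Shef1 with FGF3+10.

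The shared BBC3 probe set lay outside the rule and is given only as values: 5.79 in Shef3, 6.18 in H14 and 5.81 in Shef1 with FGF3+10, 5.83, 6.41 and 5.71 in DFNB, and 6.48, 6.60 and 5.84 in hESC. In each line both day 14 arrays read below the hESC array. The groups overlapped, and what the microRNA genes add to the signal cannot be told apart from BBC3.

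With FGF3 and FGF10 for 14 days, compared with hESC, the members' differences pointed different ways in different lines. CDKN1A, CDKN2A, CDKN2B, CDKN2D and GADD45B had positive estimates and CDKN1B, GADD45A and MDM2 negative ones. None of the 8 was called by limma at an adjusted p below 0.05, where 0.177% of all genes were, and 0 members had an unadjusted p below 0.05, against 12% of all genes. No member had all FGF3+10 arrays above all hESC arrays, against 5.68% of all genes. The median difference of the 8 members was 0.66, beside -0.19 over all genes. Shef3 alone gave 1.44, H14 0.60 and Shef1 -0.75. Without Shef3 the median was -0.04 and without Shef1 it was 1.12, so its sign rested on Shef3. It was 0.28 without H14, 0.32 without the hESC array of Shef3, 0.12 without the FGF3+10 array of Shef3 and 1.12 without that of Shef1.

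In DFNB medium alone, compared with hESC, CDKN2B, CDKN2A, GADD45B and CDKN1A had the largest estimates, between 1.80 and 2.87, and 6 of 8 members were positive. None was called, beside 0.202% of all genes called. At an unadjusted p below 0.05 there were 3 members (CDKN1A, CDKN2B and GADD45B), beside 15.8% of all genes. With the cell line as replicate block there were 2, beside 4252 of 19775 genes, and CDKN1A dropped out (unadjusted p = 0.0659 in limma). All DFNB arrays were above all hESC arrays for 3 members (CDKN1A, CDKN2A and CDKN2B), beside 7.8% of all genes. The median difference was 1.25, beside -0.19 over all genes, with 1.22 for Shef3, 1.77 for H14 and 0.18 for Shef1. It ranged from 0.77, without the hESC array of Shef3, to 1.65, without Shef1, and was 0.82 without Shef3. After quantile normalisation the median over all genes moved to -0.06 for FGF3+10 minus hESC and -0.08 for DFNB minus hESC. The FGF3+10 and DFNB comparisons share their hESC arrays, so their values are set side by side and are not independent of each other.

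Pooling both media at day 14 gave estimates of 1.51 ± 0.68 for CDKN1A (adjusted p = 0.285), 2.08 ± 1.23 for CDKN2A (0.405), 2.16 ± 1.02 for CDKN2B (0.305) and 1.40 ± 0.70 for GADD45B (0.328) in limma. No member was called, beside 1.4% of all genes, and 0 members had an unadjusted p below 0.05, beside 18.2%. With the cell line as replicate block 1 member did, GADD45B (unadjusted p = 0.0206 in limma), beside 4718 of 19775 genes. Without Shef1 the estimates of CDKN1A, CDKN2A and CDKN2B were 2.45, 3.70 and 3.30. CDKN1A was 0.65 without Shef3 and 0.86 without its hESC array, and CDKN2A and CDKN2B were 0.84 and 1.21 without H14 and 1.38 and 1.40 without its hESC array. With the cell line as replicate block the number of all genes called was 115 for FGF3+10 minus hESC, against 35 without it, 189 against 40 for DFNB minus hESC, and 612 against 277 at day 14, and still no member was called.

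**Figure D3:**
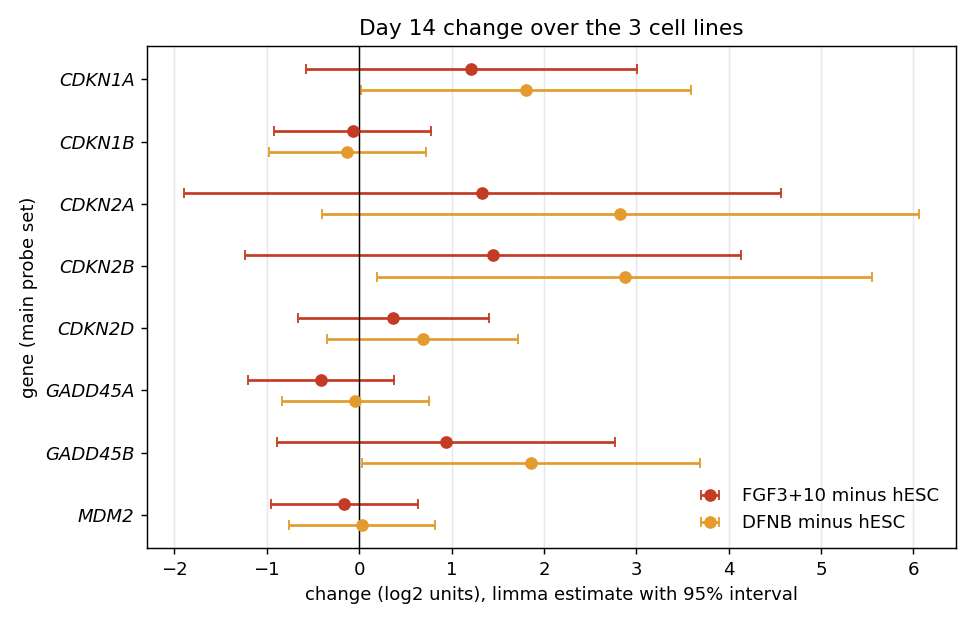
limma estimate of the difference in log2 level from hESC for each measured gene (horizontal axis), with its 95% interval, for FGF3+10 (red) and DFNB (orange), 3 arrays a group. The intervals of CDKN1A, CDKN2B and GADD45B in DFNB end just above 0 before adjustment over all genes, and those of CDKN1B, GADD45A and MDM2 are the narrowest.

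Adding FGF3 and FGF10 to DFNB medium left 7 of 8 members with a lower mean than in DFNB alone, none of them past the test. The estimates ran from -1.49 ± 1.42 for CDKN2A and -1.43 ± 1.18 for CDKN2B to 0.06 ± 0.37 for CDKN1B, with adjusted p = 1 for each in limma. No gene of the table was called (0%), and 0 members had an unadjusted p below 0.05, beside 1.52% of all genes. For CDKN2A the 95% interval was -4.72 to 1.74, so neither a lower nor a higher level with the FGFs could be told from these arrays. Single arrays moved these estimates widely: without the FGF3+10 array of Shef1 they were 0.24 for CDKN2A, -0.27 for CDKN2B, -0.26 for GADD45B and -0.01 for CDKN1A, and without that of Shef3 they were -2.72, -2.67, -1.72 and -1.16. Over the members the median difference was 0.49 within Shef3, -1.24 within H14 and -0.82 within Shef1. CDKN1A, CDKN2A, CDKN2B and GADD45B were each higher with the FGFs in Shef3 and lower with them in H14 and Shef1. The order of group means, highest in DFNB and lowest in hESC, was the same for CDKN1A, CDKN2A, CDKN2B, CDKN2D and GADD45B, but the FGF3+10 mean did not differ from either neighbour beyond the spread.

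The 3 lines were then set against each other. Over all groups the moderated F test of limma for cell line called no member, beside 0.46% of all genes. GADD45B was the 1 member with an unadjusted p below 0.05 in that limma test (unadjusted p = 0.0305, adjusted p = 0.201), beside 20.3% of all genes. The day 14 difference itself, averaged over both media, was larger in Shef3 than in Shef1 by 3.60 ± 1.22 for CDKN1A (unadjusted p = 0.0352, adjusted p = 0.185) and by 2.15 ± 0.50 for CDKN2D (unadjusted p = 0.00925, adjusted p = 0.133). For CDKN2A it was larger in H14 than in Shef1 by 5.71 ± 2.33 (adjusted p = 0.434), and for CDKN2B by 4.17 ± 2.18 (adjusted p = 0.474).

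No gene at all was called in these comparisons of lines (0% for Shef3 minus Shef1, for Shef3 minus H14 and for H14 minus Shef1). At an unadjusted p below 0.05 there were 2 members and 23.4% of all genes for Shef3 minus Shef1, 0 members and 14.1% for Shef3 minus H14, and 1 member, CDKN2D, and 11.6% for H14 minus Shef1. These tests take their spread from the gap between both media within a line at day 14, so they are weak and measure no repeat cultures.

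CDKN2A, CDKN2B and CDKN1A, the 3 members with the widest ranges, were matched against 11494 genes of mean level 4 or more. The measure was the root mean square difference over the 9 arrays, after setting each gene to its own mean. The members themselves were left out of these candidates, so the likeness of CDKN2A and CDKN2B to each other is not ranked here. For CDKN2B the closest candidates were ADAMTS5, a protease of the extracellular matrix, at 0.53, and SFXN3, a mitochondrial carrier, at 0.59. The median over all candidates was 1.92. The same genes were the closest candidates for CDKN2A, at 0.66 each, beside a median of 2.12. ADAMTS5 stood at 8.38, 6.48 and 3.69 in FGF3+10, 6.72, 8.35 and 5.38 in DFNB, and 5.26, 3.49 and 4.45 in hESC, in the order Shef3, H14 and Shef1, high and low on the same arrays as CDKN2B. For CDKN1A they were CPA4, a carboxypeptidase, at 0.33 and SH3RF3, a RING and SH3 domain protein, at 0.34, beside a median of 1.32. Likeness over 9 arrays is a description with no test.

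Other p53 targets were taken from a list of 28 genes, 26 of them measured. None was called in any comparison. The list's median difference was 0.23 for FGF3+10 minus hESC and 0.33 for DFNB minus hESC, beside -0.19 over all genes, with 14 of 26 and 16 of 26 genes above 0. The members with the largest differences went both ways. PMAIP1 (NOXA), a death gene of the BCL2 family, had 8.59, 9.27 and 9.22 in FGF3+10, 7.67, 10.09 and 9.16 in DFNB, and 10.73, 10.80 and 10.90 in hESC, below hESC on all 6 day 14 arrays (-1.78 ± 0.56, adjusted p = 0.255, and -1.84 ± 0.56, adjusted p = 0.185, in limma). Of 19775 genes, 1586 had all day 14 arrays below all hESC arrays. GDF15, a stress-induced secreted factor, differed by -1.76 ± 0.75 in DFNB (adjusted p = 0.308). EDA2R, a death receptor of the TNF family, also had a large difference in FGF3+10 (adjusted p = 0.233), but it read below 4 on every array, so no size is given.

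Of 19 measured p53 regulators among 21 listed, none was called, and the list's medians were -0.09 for FGF3+10 minus hESC and -0.20 for DFNB minus hESC. SIRT1, a deacetylase that acts on p53, had the largest differences, -1.41 ± 0.67 for FGF3+10 and -1.81 ± 0.67 for DFNB (adjusted p = 0.451 and 0.258 in limma), and CHEK2, a damage kinase, followed at -1.03 ± 0.80 and -1.52 ± 0.80 (0.643 and 0.391).

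The 15 genes of the BCL2 family, which set the threshold of cell death, had medians of -0.21 for FGF3+10 minus hESC and -0.13 for DFNB minus hESC. BCL2, the founding survival gene of the family, was the 1 gene of the pathway lists to be called, at day 14 over both media, where 1.4% of all genes were. It stood at 6.73 in Shef3, 6.07 in H14 and 5.55 in Shef1 with FGF3+10, at 6.58, 5.75 and 6.19 in DFNB, and at 4.22, 4.67 and 4.05 in hESC. All 6 day 14 arrays were above all 3 hESC arrays, as for 836 of 19775 genes. It rose by 1.83 ± 0.34 at day 14 over both media (adjusted p = 0.0459 in limma, 0.0372 with the replicate block), and by 1.80 ± 0.39 and 1.86 ± 0.39 for FGF3+10 and DFNB singly, where the adjusted p was 0.121 and 0.0914. Its call at day 14 was lost on leaving out any line or any single array other than the FGF3+10 array of Shef1, with estimates of 1.53 to 2.13 and adjusted p of 0.0457 to 0.328 over these fits. It was also lost with every probe set as a feature (adjusted p = 0.0734) and with the mean of its probe sets (0.74, adjusted p = 0.297).

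A list of 16 genes held cyclins, CDKs and the CDK-activating phosphatases CDC25A, CDC25B and CDC25C. It had medians of -0.24 for FGF3+10 minus hESC and -0.16 for DFNB minus hESC, and none of its genes was called. CCNA1, a cyclin best known from the germ line, differed by -1.67 ± 0.54 in FGF3+10 and -1.53 ± 0.54 in DFNB (adjusted p = 0.268 and 0.241 in limma). Its mean was below 4 in both day 14 groups. CCNA2, the cyclin of replicating cells, differed by -0.77 ± 0.52 in FGF3+10 (adjusted p = 0.592). CCND2, a cyclin of CDK4 and CDK6, differed by 1.07 ± 0.67 in DFNB (adjusted p = 0.458). Of 13 RB and E2F factors none was called, and the 2 largest differences had opposite signs. E2F2 differed by 1.17 ± 0.36 in FGF3+10 and 0.92 ± 0.36 in DFNB (adjusted p = 0.240 and 0.274), and TFDP2, a partner of the E2F factors, by -0.70 ± 0.50 and -1.01 ± 0.50 (adjusted p = 0.615 and 0.367). A further list held CDKN1C, GADD45G, CDKN3, CDKN2AIP, CDKN2AIPNL and GADD45GIP1, which share name stems with the members but are not all of their families. These 6 genes had medians of -0.45 in each medium, with 5 of 6 below 0 and none called. GADD45G differed by -1.28 ± 0.87 in FGF3+10 and by -0.74 ± 0.87 in DFNB, CDKN1C, which codes for the CIP/KIP protein p57, by -0.67 ± 0.42 in FGF3+10, and CDKN2AIPNL by -0.52 ± 0.42 in DFNB.

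Of 19 regulators of p27 and INK4 levels 16 were measured, 15 of these 16 had a negative difference in each medium, and none was called in either. The median was -0.21 for FGF3+10 minus hESC and -0.31 for DFNB minus hESC, beside -0.19 over all genes. ETS2, a factor that can activate CDKN2A, differed by -1.13 ± 0.22 at day 14 over both media (adjusted p = 0.0534 in limma, 0.0491 with the replicate block). It had 6.58, 6.62 and 6.48 in FGF3+10, 6.77, 7.14 and 7.01 in DFNB, and 8.07, 7.84 and 7.77 in hESC. All 3 hESC arrays thus lay above all others, as for 1586 of 19775 genes. For FGF3+10 alone it differed by -1.34 ± 0.26 (adjusted p = 0.0965). MYC, which can repress CDKN1A and CDKN2B, differed by -1.22 ± 0.51 in FGF3+10 (adjusted p = 0.388) and by -1.0 ± 0.51 in DFNB (adjusted p = 0.377). CBX7, a Polycomb subunit, was among the largest in DFNB but averaged below 4 in every group. BMI1, CBX8 and RNF2, subunits of the Polycomb complex that silences CDKN2A, had no single-gene probe set in the table used.

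A list of 20 proliferation genes, such as MKI67 and the MCM helicase subunits, was set beside the members. None of the 20 was called, 15 were below 0 in FGF3+10 and 19 in DFNB. The medians were -0.39 and -0.54, beside -0.19 over all genes in each medium. FGF3+10 minus hESC had a median of -1.38 within Shef3, -0.21 within H14 and 0.38 within Shef1, and DFNB minus hESC had -1.12, -0.82 and 0.26. Over all genes the medians in that order were -0.39, -0.23 and 0.06 for FGF3+10 and -0.31, -0.29 and 0.04 for DFNB. Shef3 and H14, in which the members' median was positive in both media, had proliferation medians below 0, and Shef1, in which the members' median was lowest, had them above 0. In each line the median over all genes had the same sign as the proliferation median. What either list's shift owes to the other was not tested. BUB1, a mitotic checkpoint kinase, had the largest difference, -0.96 ± 0.68 in FGF3+10 and -1.31 ± 0.68 in DFNB (adjusted p = 0.612 and 0.385 in limma). It was followed by PLK1, a mitotic kinase, at -0.75 ± 0.48 in FGF3+10 and by CDT1, a factor that licenses replication origins, at -1.04 ± 0.65 in DFNB.

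Markers of other cell types also differed between the lines, and not all in 1 order. The 6 mesenchyme and fibroblast markers had median differences from hESC of 1.05 (Shef3), 0.45 (H14) and -1.42 (Shef1) for FGF3+10, and of 1.53, 1.44 and -0.14 for DFNB. Their summed log2 level ran from 51.7 to 66.9 on FGF3+10 arrays, 60.6 to 70.6 on DFNB arrays and 58.3 to 60.2 on hESC arrays, and all 6 averaged above 4 in each group. The pluripotency markers had median differences of -4.49, -1.54 and -0.46 for FGF3+10 and -4.41, -2.98 and -0.53 for DFNB, in the order Shef3, H14 and Shef1. The 6 neural progenitor markers had 4.34, 1.75 and 4.06 for FGF3+10 and 3.72, 1.15 and 4.02 for DFNB, lowest in H14. The 5 otic and preplacodal markers had 0.59, 1.38 and 2.24 for FGF3+10 and 1.06, 1.32 and 2.36 for DFNB, highest in Shef1, where the members' median was lowest. The 5 neuron markers had 2.51, -0.33 and -0.13 for FGF3+10 and 2.33, 1.66 and 0.30 for DFNB, and the 5 endoderm markers were below 0 in every line, from -4.02 to -1.0. In hESC, the neural progenitor markers HES5, SIX3, SIX6 and SOX1, the otic markers DLX5, EYA1 and PAX2 and the neuron markers DCX and ELAVL4 averaged below 4. NANOG and the endoderm markers FOXA2, GATA4 and SOX17 did so in both day 14 groups. The sizes and the order of lines for these lists thus rest partly on dim readings. DCN and POSTN, matrix genes of fibroblasts, had the largest differences of the 6 mesenchyme markers. In DFNB these were 2.89 ± 1.11 and 1.88 ± 0.51 (adjusted p = 0.272 and 0.155 in limma), and all 6 markers were above 0. In FGF3+10 they were 1.44 and 0.77, while 4 of the 6 markers were below 0, with a median of -0.20. SIX6 was called for FGF3+10 minus hESC, and SIX6, SIX3 and DLX5 for day 14 over both media, where 0.177% and 1.4% of all genes were. Each of these averaged below 4 in hESC, so no size is given. The part of any of these cell types in the members' levels was not tested.

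**Figure D4:**
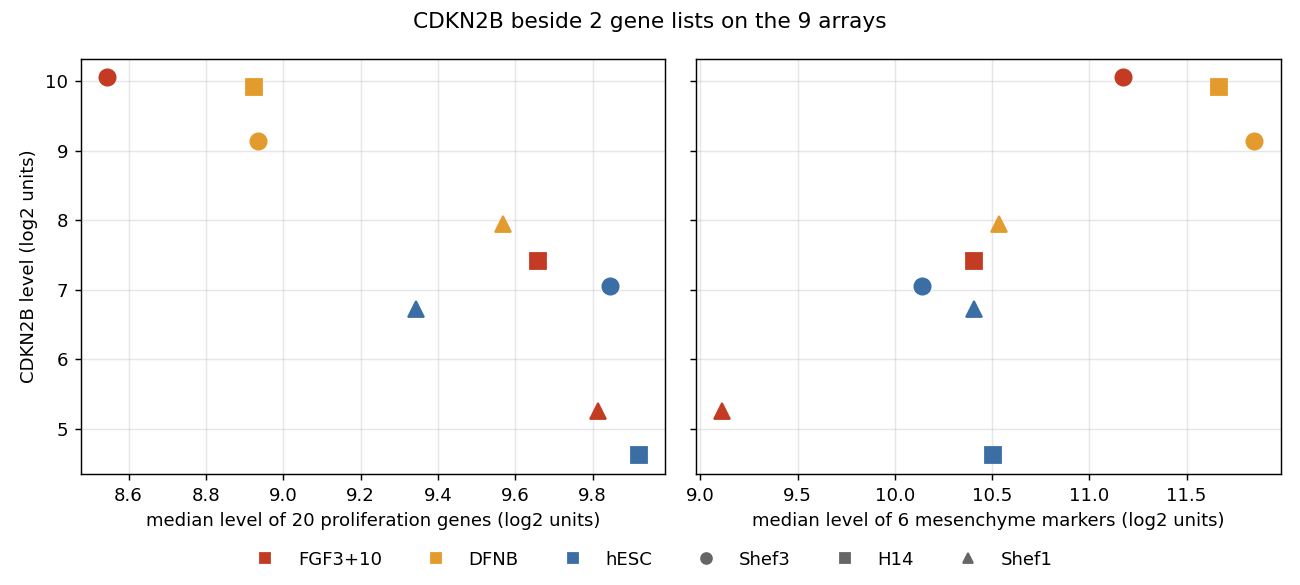
CDKN2B level (vertical axis, log2 units) on the 9 arrays against the median level of 20 proliferation genes (left) and of 6 mesenchyme and fibroblast markers (right). Colour gives the group, FGF3+10, DFNB or hESC, and shape the cell line. The 3 arrays highest in CDKN2B, both day 14 arrays of Shef3 and the DFNB array of H14, have the lowest proliferation medians and the highest mesenchyme medians.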

How the data were processed

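Total RNA of 3 cell lines in 3 groups was hybridised to 9 arrays after 3′ amplification and biotin labelling, per the labels' protocols. The authors deposited 1 logarithm per probe set and array, scaled to a common median of 3.20, and these values are taken here as log2. No source used here states the base, the software or the background correction. Array values have no read depth, so the number of arrays limits the precision. Of 54675 probe sets 62 were controls, the platform annotation gave 41091 a single gene symbol, 1801 several and 11721 none, and 41037 were matched by Entrez identifier to current RefSeq symbols.

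Each gene was represented by its brightest probe set, on average over the 9 arrays. limma 3.58.1 (lmFit and eBayes, R 4.3.3) was fitted to all 19775 genes and all 9 arrays, p-values were adjusted by Benjamini-Hochberg, and a gene counted as called where the adjusted p lay below 0.05. Single probe sets were tested in a fit over all probe sets. The code was checked on simulated data, in which the test of the day 14 change between lines recovered almost none of the changes put in. Each cell line occurs in every group and so pairs the arrays by the label; correlations of same-line arrays, each taken as its deviation from the group mean, were 0.0861 to 0.713. Alternatives were the line as replicate block, quantile normalisation, a filter and a floor at level 4, the mean of probe sets, array weights, another variance prior and leaving out each array or line; the day 14 change between lines was run without the block, weights, prior and left-out arrays, and the test of cell lines without the block.

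The members and lists were chosen with earlier results of these data known, so list counts are descriptions. Named were all members, and of each pathway list its called genes or else its 2 largest differences from hESC in each medium. Marker genes were named only beside a list's values. Also named were the 2 genes outside the members that were most like each of the 3 widest-ranging members. EDA2R, GDF15 and similar list genes follow that rule; probe set 238733_at and the shared BBC3 probe set were singled out after their values were seen.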

Additional observations from a re-analysis of the deposited data

Results flagged for a closer look

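Day 14 differences of opposite sign between lines, in both media, picked out 3 members. For CDKN2D they were positive in Shef3 (1.49 with FGF3+10, 1.56 in DFNB) and in H14 (0.35 and 1.04) but negative in Shef1 (-0.72 and -0.54). The difference between lines was 2.15 ± 0.50 for Shef3 minus Shef1 (adjusted p = 0.133 in limma) and 1.33 ± 0.50 for H14 minus Shef1 (adjusted p = 0.429). For CDKN1B, H14 was negative (-0.57 and -1.06) and Shef1 positive (0.41 and 0.26), a difference of -1.15 ± 0.49 (adjusted p = 0.437). For the main MDM2 probe set, H14 was positive (0.25 and 0.52), Shef3 negative (-0.07 and -0.33) and Shef1 negative (-0.66 and -0.11). The difference was -0.59 ± 0.47 for Shef3 minus H14 (adjusted p = 0.615) and 0.77 ± 0.47 for H14 minus Shef1 (adjusted p = 0.512). None of these tests passed, and with 1 array for each line and medium some opposite signs arise by chance. The rule was applied to the members only. The share of all genes that meet it is not known, so the count of 3 is no result about the members.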

How the results depend on the processing

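No member was called in any comparison of the report, and this held under every alternative run for it but 2. The day 14 change between lines was run under only 5 alternatives, with no array left out, and the test of cell lines had no block. With array weights CDKN2B passed for DFNB minus hESC (3.84, adjusted p = 0.0438), so 1 member was called. With only genes of mean level 4 or more, CDKN2D passed for the day 14 change of Shef3 minus Shef1 (2.15, adjusted p = 0.0417), again 1 member; that filter leaves fewer genes to adjust over. The cause was not tested for the array weights.

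The sign turned only for CDKN1B, CDKN2A, CDKN2D, GADD45A and MDM2. With quantile normalisation CDKN1B was 0.145, 0.0557 and 0.10 for FGF3+10 minus hESC, DFNB minus hESC and day 14, and 0.36 for Shef3 minus Shef1; GADD45A was 0.17 for DFNB, 0.001 at day 14 and 0.43 for Shef3 minus Shef1; MDM2 was 0.0331 for FGF3+10 and 0.106 at day 14. With the mean of probe sets CDKN2D was -0.48 for FGF3+10, -0.11 at day 14 and -0.0064 for H14 minus Shef1, and MDM2 was 0.32 for FGF3+10 and 0.51 at day 14; here dim probe sets of the same genes enter. With array weights GADD45A was 0.0193 and MDM2 -0.0122 for DFNB, and MDM2 was 0.0366 for FGF3+10, 0.0488 for FGF3+10 minus DFNB and 0.0122 at day 14. The cause was not tested.

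Leaving out an array or a line gave -0.40 to 0.34 (CDKN1B), -0.43 to 0.33 (GADD45A) and -0.22 to 0.30 (MDM2) for DFNB minus hESC; -0.31 to 0.18 (CDKN1B), -0.19 to 0.92 (CDKN2D) and -0.36 to 0.0904 (MDM2) for FGF3+10 minus hESC; -0.20 to 0.32 (CDKN1B) and -2.72 to 0.24 (CDKN2A) for FGF3+10 minus DFNB; and -0.32 to 0.26 (CDKN1B) and -0.29 to 0.17 (MDM2) at day 14. The median over the members stayed between 0.77 and 1.65 for DFNB minus hESC and between -0.04 and 1.12 for FGF3+10 minus hESC.

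The number of all genes called, 35, 40 and 277 for FGF3+10 minus hESC, DFNB minus hESC and day 14, was 284, 1612 and 1408 with array weights, 123, 183 and 479 with the floor, 66, 122 and 322 without dim genes, 81, 161 and 464 with the other variance prior, and 115, 189 and 612 with the replicate block, which changed no member's call. Leaving out arrays it was 0 to 32, 0 to 72 and 1 to 238. For the cell lines it was 91, 58 to 4475 under the other alternatives, and 4 to 55 when an array or a line was left out (9 without Shef3, 9 without H14, 4 without Shef1). For the day 14 change between lines it was 0, but 2589, 754 and 244 with the floor and 1700 for Shef3 minus Shef1 without dim genes. Low values limit the dim probe sets.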

Other observations

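Genes next to CDKN2A and CDKN2B on chromosome 9 were read after the values of the members were seen, and are given as values with no test. MIR31HG, the host gene of microRNA miR-31, is a near neighbour of both inhibitors in RefSeq. It differed from hESC by 2.58 in Shef3, 2.67 in H14 and -1.22 in Shef1 with FGF3+10, and by 1.99, 2.05 and -0.07 in DFNB, the same signs as CDKN2A except in Shef1 with DFNB. MIR31HG read below 4 in hESC of Shef3 (2.96) and H14 (2.68) and in Shef1 with FGF3+10 (3.53), so these sizes rest partly on dim readings. MTAP, a methionine salvage gene between MIR31HG and CDKN2A, was below hESC on all 6 day 14 arrays, by -1.14, -0.45 and -0.26 with FGF3+10 and -1.34, -0.44 and -0.16 in DFNB. KLHL9, farther along, was above hESC on all 6, by 0.35 to 0.66. CDKN2B-AS1, the antisense RNA that overlaps CDKN2B, read below 0 on all 9 arrays, so its probe set gave no order.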
